A study of Homo sapiens with 6 samples.

Results

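The collagen genes and the enzymes that modify collagen chains were followed in human embryonic stem cells of the established line KhES-1, kept in 2 culture media. The members were chosen by symbol: 43 rows with a collagen chain symbol and 12 rows for prolyl 4-hydroxylases, lysyl hydroxylases, lysyl oxidases and the collagen chaperone SERPINH1, 55 of 23346 gene rows in all. One group was grown in AKIT medium, known as a medium in which small-molecule inhibitors of GSK3, of DYRK kinases and of calcineurin take the place of added growth factors. The other, the control, was grown in Essential 8 (E8), a defined medium that contains FGF2 and TGF-beta. In both media the dishes carried 0.5 µg per square cm of a laminin fragment, and the labels name no genetic change. The comparison used the libraries of AKIT replicates 1 to 3 and E8 replicates 1 and 2. The third E8 sample was not analysed here.

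Collagens are proteins in which 3 chains wind into a triple helix. Fibrillar collagens form the banded fibres of connective tissue, collagen IV forms the network of basement membranes, and other types bind to fibrils, build beaded filaments or span the cell membrane. Before the helix folds, prolyl 4-hydroxylases and lysyl hydroxylases modify the chains in the endoplasmic reticulum, where SERPINH1 (HSP47) binds the folded helix. Lysyl oxidases cross-link the fibres outside the cell. Pluripotent cells are epithelial and lie on a basement membrane, and fibrillar collagens are best known as products of mesenchymal cells.

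Levels are given in RPKM, reads per kilobase of gene, scaled to the reads of the library, which allows levels of different genes to be compared. The values rested on 16242864 to 23263095 reads per library. Each difference subtracts E8 from AKIT after a log2(RPKM + 1) transform, which understates changes at low values, and stands with ± its standard error. A fold is the quotient of the mean RPKM values of the groups. "Rose" and "fell" are used of genes with a Benjamini-Hochberg adjusted p under 0.05 by limma. The adjustment ran over the 14776 genes whose mean reached 0.5 RPKM. Whether the replicates came from separate cultures is not in the labels, so a p-value here reflects how far these samples spread, and that spread may be technical. In RNA from whole cultures, fewer cells of a type and less RNA per cell cannot be told apart. On the principal components of all tested genes, AKIT replicate 2 stood apart from the other libraries on the second component (17.2% of the variance), at -27.3 against 2.13 to 12.7. The pluripotency marker POU5F1 was at 296 to 400.0 RPKM in AKIT and 313 to 342 in E8.

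Of the 55 members, 42 passed the filter on low values. Of these, 11 fell in AKIT and 2 rose. Over all tested genes 11.7% fell, 8.22% rose and 20.0% were called in either direction, and among the members tested 26.2% fell, 4.76% rose and 31.0% were called. The median difference of the 42 members was -0.26 on the log2 scale, beside -0.01 for all tested genes. The falls were in COL23A1, COL9A1, LOXL1, LOXL2, COL6A3, COL22A1, COL9A2, COL25A1, COL1A1, COL18A1 and COL8A2, and the rises in COL4A1, a chain of the basement membrane network, and COL14A1, a fibril-associated collagen. COL22A1 reached the filter through its E8 libraries, the group in which it was higher. AKIT and E8 libraries did not overlap for 26 of the 42 members (61.9%), where 54.4% of all tested genes did not overlap. Among the 42 members, 21 were lower in AKIT without overlap and 5 higher, where 28.6% and 25.8% of all tested genes were. The calls rested on both E8 libraries: with E8 replicate 1 or 2 left out, the members called were COL23A1 and COL9A1, both lower, where 1.72% and 1.7% of all genes were called lower and 0.969% and 0.963% higher. Without AKIT replicate 1, 6 members were called lower (8.5% of all genes) and 1 higher (5.35%). Without AKIT replicate 3, 4 members were called lower (7.55% of all genes) and 5 higher (4.62%), so that falls no longer outnumbered rises among the members. In the fits without AKIT replicate 1 or 3, 6 of the 13 calls were kept. Without AKIT replicate 2 all 13 were kept, with 15 members called lower (17.8% of all genes) and 2 higher (14.5%). Calls over all genes were also more frequent in that fit, at 32.2% against 20.0%. Of the alternative settings in which each was tested, COL18A1 was called under 6 of 15, COL6A3 under 6 of 14 and COL9A2 under 7 of 14. COL25A1 was called under 4 of 14.

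**Figure D1:**
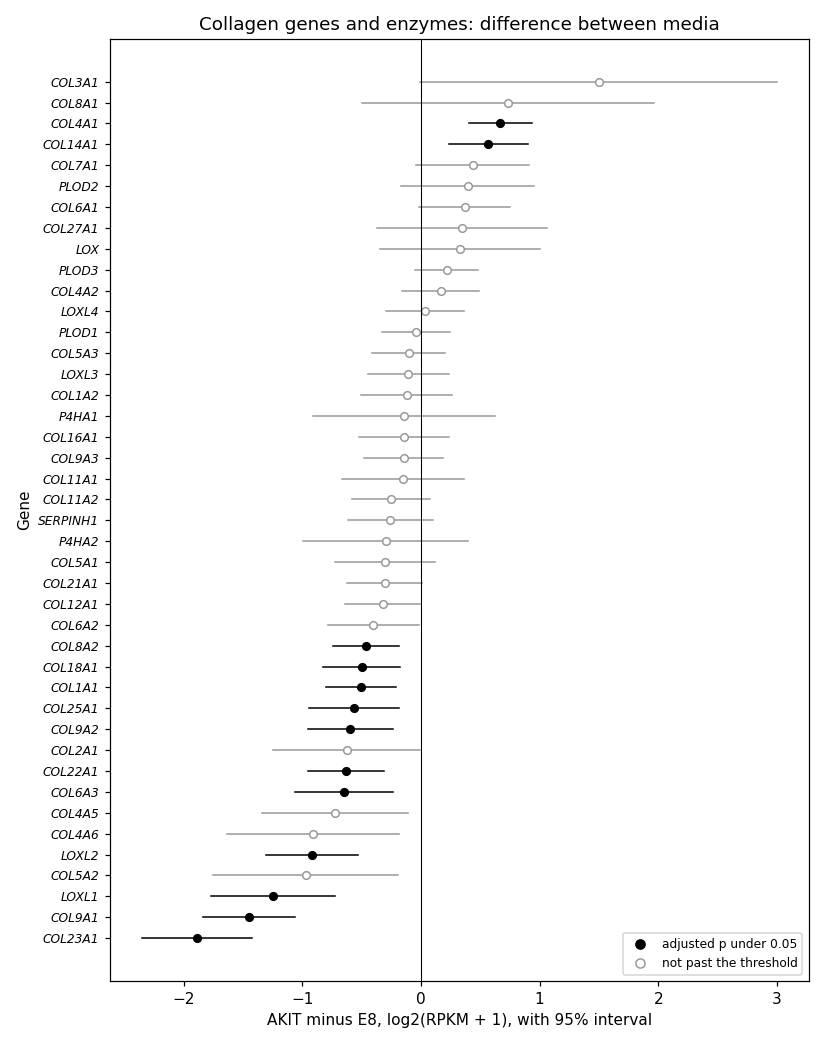
The horizontal axis gives the log2(RPKM + 1) difference, AKIT minus E8, for the 42 members that passed the filter, 1 gene per line, with points for the estimate and lines for its 95% interval. The 13 filled points passed an adjusted p of 0.05, with 11 left of 0 and 2 right of it, and the interval of COL3A1 is the widest.

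Fibrillar collagens were described library by library. Of 11 genes, 10 passed the filter and 1 changed, beside 20.0% of all tested genes: COL1A1, the major chain of collagen I, fell. In AKIT replicates 1, 2 and 3, COL1A1 was at 32.5, 41.8 and 38.7 RPKM, against 51.9 and 55.5 in E8 replicates 1 and 2. Values below follow this order of libraries. All AKIT libraries were below both E8 libraries, a 1.43-fold lower mean (difference -0.51 ± 0.12, limma adjusted p = 0.0314). The call ended without AKIT replicate 1 (limma adjusted p = 0.0521), AKIT replicate 3 (0.0689) and E8 replicate 1 (0.17) or 2 (0.239). COL1A2, the partner chain of collagen I, was at 15.6, 10.55 and 11.5 RPKM in AKIT and 13.6 and 13.5 in E8. Its AKIT libraries lay on both sides of E8 (difference -0.12 ± 0.16, limma adjusted p = 0.631, 95% interval -0.50 to 0.26). The quotient of COL1A1 to COL1A2 was 2.09 in AKIT replicate 1, 3.96 and 3.35 in replicates 2 and 3, and 3.81 and 4.11 in E8, so that AKIT replicate 1 had the lowest and the groups overlapped.

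None of the 3 chains of collagen V, which takes part in starting collagen I fibres, passed the test. In AKIT, COL5A2 was at 6.43, 2.56 and 2.33 RPKM, against 7.85 and 7.61 in E8. All AKIT libraries were below E8, with replicate 1 near the E8 level, and the gene did not pass (difference -0.97 ± 0.33, limma adjusted p = 0.082). With AKIT replicate 1 left out it passed, at -1.34 (limma adjusted p = 0.00692). COL5A1 was at 3.23, 3.68 and 2.19 RPKM in AKIT and 3.97 and 3.85 in E8 (difference -0.30 ± 0.18, limma adjusted p = 0.269). COL5A3 was at 0.690, 0.620 and 0.618 in AKIT and 0.761 and 0.768 in E8 (difference -0.10 ± 0.13, limma adjusted p = 0.603). The 3 chains were lower in each AKIT library than in either E8 library, by amounts that did not pass the test. Of all tested genes, 28.6% were lower in AKIT without overlap, and COL5A3 rested on 74 to 99 reads per library.

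Cartilage-type fibrillar chains other than COL27A1 were low in both media. COL2A1, the chain of collagen II, was at 1.83, 2.501 and 0.831 RPKM in AKIT and 2.995 and 3.12 in E8, without overlap, and AKIT replicate 3 was lowest (difference -0.63 ± 0.26, limma adjusted p = 0.134). Without AKIT replicate 2 its difference was -0.83 and passed (limma adjusted p = 0.0298). COL11A1, a chain of collagen XI, was at 2.96, 3.67 and 1.79 in AKIT and 3.15 and 3.12 in E8, with overlap, and its difference of -0.15 ± 0.22 turned to 0.06 without AKIT replicate 3. COL11A2 was at 0.358, 0.501 and 0.406 in AKIT and 0.780 and 0.606 in E8 (difference -0.25 ± 0.14, limma adjusted p = 0.242). COL27A1, a fibrillar collagen of cartilage, was at 5.21 and 6.12 in AKIT replicates 1 and 3, 12.3 in AKIT replicate 2, and 5.44 and 5.77 in E8 (difference 0.35 ± 0.30, limma adjusted p = 0.457). AKIT replicate 2 alone stood above the other 4 libraries for this gene. COL24A1 did not pass the filter, with 30, 32 and 15 reads in AKIT and 20 and 41 in E8.

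COL3A1, the chain of collagen III, had the widest spread of the fibrillar genes. In AKIT its level was 5.63, 2.15 and 0.141 RPKM, from 719, 275 and 15 reads. E8 held 0.0413 and 0 RPKM, from 4 and 0 reads. The exact 95% Poisson intervals, which cover counting error only, were 5.23 to 6.06, 1.91 to 2.42 and 0.0788 to 0.232 RPKM in AKIT and 0.0112 to 0.106 in E8 replicate 1. The 0 reads of E8 replicate 2 allow up to 0.0336 RPKM (3 reads). AKIT libraries all lay above E8, while the interval of AKIT replicate 3 overlapped that of E8 replicate 1, and the difference of 1.496 ± 0.64 did not pass (limma adjusted p = 0.140, 95% interval -0.01 to 3.00). Without AKIT replicate 3 it was 2.16 and passed (limma adjusted p = 0.0221). Without AKIT replicate 1 it was 0.89, the smallest of the 14 alternatives in which it was tested, and did not pass. The gene reached the filter through its AKIT libraries, as its mean in E8 was 0.0206 RPKM.

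**Figure D2:**
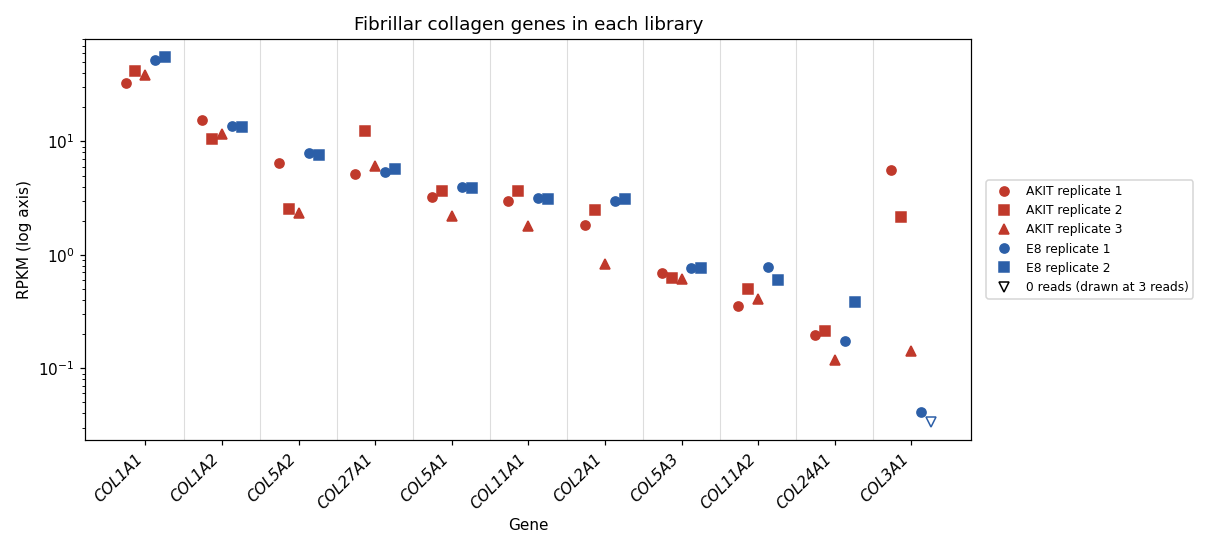
Each point is 1 library, with RPKM on a log axis and the 11 fibrillar collagen genes in order of their mean in E8. E8 libraries nearly coincide for most genes, AKIT libraries lie below them for COL1A1, and COL3A1 spans 0.141 to 5.63 RPKM within AKIT.

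Summed over the 11 fibrillar genes, the level was 74.6, 80.5 and 64.7 RPKM in AKIT and 90.6 and 94.2 in E8, without overlap, and COL1A1 made up the largest part. The sum of the 6 collagen IV genes was 63.9, 68.6 and 50.7 RPKM in AKIT and 53.7 and 53.3 in E8, with overlap. For all 43 collagen genes the sums overlapped as well, at 359, 412 and 307 RPKM in AKIT and 410.1 and 387 in E8, or 0.165% to 0.219% of reads in AKIT and 0.211% to 0.220% in E8. With 3 against 2 libraries an exact permutation test of such a single value has 10 arrangements and cannot go below p = 0.1, so these sums were not tested.

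Collagen IV genes lie in head-to-head pairs, with each pair transcribed outward from a common interval. COL4A1 and COL4A2 supply the common network of basement membranes and share the shortest such interval. It is shown here because the gene on 1 side was called and the gene on the other was not. In the RefSeq table (GRCh38.p14, another build than that of the values) COL4A1 starts on the minus strand and COL4A2 on the plus strand of chromosome 13, with 126 bases between the starts at chr13:110307158-110307283. The capitals mark the letters CCAAT and GGGCGG, searched on both strands, each found 1 time.
COL4A1 and COL4A2, between the starts: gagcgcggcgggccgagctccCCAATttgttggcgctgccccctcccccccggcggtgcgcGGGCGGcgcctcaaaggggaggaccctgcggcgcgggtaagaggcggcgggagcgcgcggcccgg
Of all listed promoters, 21.1% hold CCAAT and 34.6% hold GGGCGG in the 126 bases before the start. TATAAA is not in this interval. A match of letters is a description and not a shown site of binding. GGGCGG was added to the search after the values were seen.

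COL4A1 rose from 17.1 and 16.9 RPKM in E8 to 29.5, 29.1 and 24.6 in AKIT, a 1.63-fold higher mean (difference 0.67 ± 0.11, limma adjusted p = 0.00943). COL4A2 was at 28.3, 28.8 and 21.8 RPKM in AKIT and 23.1 and 23.1 in E8, with AKIT replicate 3 below E8, and did not pass (difference 0.17 ± 0.14, limma adjusted p = 0.421, 95% interval -0.16 to 0.49). The quotient of COL4A1 to COL4A2 was 1.04, 1.009 and 1.13 in AKIT and 0.741 and 0.730 in E8, so that COL4A2 was the more abundant chain in E8, and COL4A1 was level with it or above it in AKIT. The groups of quotients did not overlap, and the difference between the genes was not tested. The call of COL4A1 ended without E8 replicate 1 (limma adjusted p = 0.0999) or 2 (0.107), with differences of 0.68 and 0.66.

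COL4A5 and COL4A6, a head-to-head pair on chromosome X with 379 bases between the listed starts, were both lower in AKIT without passing the test. COL4A5 was at 3.70, 6.25 and 2.73 RPKM in AKIT and 7.41 and 7.19 in E8 (difference -0.72 ± 0.26, limma adjusted p = 0.0944). COL4A6 was at 1.99, 4.03 and 1.26 in AKIT and 5.04 and 5.13 in E8 (difference -0.91 ± 0.31, limma adjusted p = 0.0799). For both genes the groups did not overlap, and AKIT replicate 2 lay nearest to E8. Without AKIT replicate 2 both passed, at -0.99 and -1.23 (limma adjusted p = 0.00469 and 0.00357). COL4A3 and COL4A4, a pair on chromosome 2 with 418 bases between the starts and known for the basement membrane of the kidney, did not pass the filter. COL4A4 had 74, 80 and 65 reads in AKIT and 118 and 118 in E8 (0.308 to 0.333 against 0.646 and 0.703 RPKM), and COL4A3 had 6, 19 and 12 reads against 53 and 22.

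Of 3 tested chains of collagen VI, the beaded filaments that lie between cells and matrix, 1 was called, beside 20.0% of all tested genes. COL6A3 fell, from 2.13 and 2.34 RPKM in E8 to 1.33, 1.24 and 0.684 in AKIT, a 2.06-fold lower mean (difference -0.65 ± 0.18, limma adjusted p = 0.043). COL6A2 was at 31.0, 40.2 and 27.6 RPKM in AKIT and 45.7 and 41.0 in E8, below E8 in each library, and did not pass (difference -0.40 ± 0.16, limma adjusted p = 0.123). COL6A1, the most abundant collagen gene in each AKIT library, was at 98.1, 109 and 75.9 RPKM in AKIT and 76.7 and 67.7 in E8, with AKIT replicate 3 between the E8 libraries (difference 0.37 ± 0.16, limma adjusted p = 0.150). The quotient of COL6A1 to COL6A2, the genes of neighbouring loci, was 3.16, 2.72 and 2.75 in AKIT and 1.68 and 1.65 in E8, without overlap. AKIT libraries thus held more COL6A1 per COL6A2 than E8 libraries. Without AKIT replicate 3, COL6A1 passed as higher (0.52, limma adjusted p = 0.0456) and the call of COL6A3 ended (-0.50, limma adjusted p = 0.0704), as it did without AKIT replicate 1 (0.0551) and E8 replicate 1 (0.196) or 2 (0.252). Without AKIT replicate 2, COL6A2 passed as lower (-0.55, limma adjusted p = 0.00938).

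Fibril-associated collagens held 3 falls and 1 rise among 8 tested genes, where 11.7% of all tested genes fell and 8.22% rose. COL9A1, a chain of the cartilage collagen IX, stood at 0.493, 0.665 and 0.437 RPKM in AKIT and 3.77 and 2.66 in E8. Its mean was 6.04-fold lower in AKIT (difference -1.45 ± 0.16, limma adjusted p = 0.00268), and it was called under each of the 14 alternatives in which it was tested. COL9A2 fell from 2.34 and 1.87 RPKM in E8 to 0.972, 1.31 and 0.892 in AKIT, a 1.99-fold lower mean (difference -0.60 ± 0.15, limma adjusted p = 0.0358). COL9A3, the third chain, was at 12.9, 15.2 and 11.3 in AKIT and 15.5 and 13.6 in E8, with overlap (difference -0.15 ± 0.14, limma adjusted p = 0.496). The quotient of COL9A3 to COL9A1 was 22.9 to 26.1 in AKIT against 4.11 and 5.11 in E8, and that of COL9A3 to COL9A2 was 11.6 to 13.2 against 6.62 and 7.26. COL9A3 was the most abundant chain of collagen IX in each library, and more so in AKIT.

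**Figure D3:**
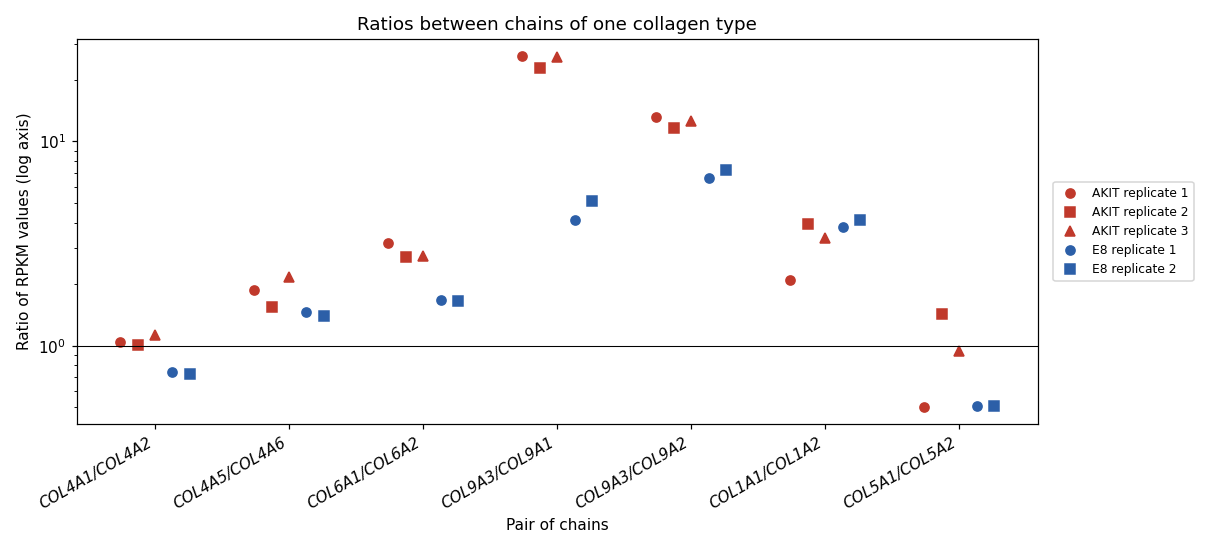
Each point is the quotient of 2 RPKM values in 1 library, on a log axis, for 7 pairs of chains of one collagen type. AKIT and E8 points are apart for COL4A1 to COL4A2, COL4A5 to COL4A6, COL6A1 to COL6A2 and both collagen IX pairs, and they overlap for the collagen I and collagen V pairs. Of the pairs not drawn, COL4A3 to COL4A4, COL8A1 to COL8A2 and COL11A1 to COL11A2 overlap. COL6A1 to COL6A3 and COL6A2 to COL6A3 do not. No quotient was tested.

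COL22A1, a collagen of tissue junctions, fell from 1.13 and 1.35 RPKM in E8 to 0.427, 0.501 and 0.406 in AKIT, a 2.79-fold lower mean (difference -0.63 ± 0.13, limma adjusted p = 0.0206). It reached the filter through its E8 libraries, as its mean in AKIT was 0.445 RPKM. COL14A1, which binds to the surface of collagen I fibrils, rose from 2.16 and 1.90 RPKM in E8 to 3.90, 3.64 and 2.97 in AKIT, a 1.73-fold higher mean (difference 0.57 ± 0.14, limma adjusted p = 0.0323). Both had groups without overlap, as had COL12A1 and COL21A1, which did not pass. COL12A1, a relative of COL14A1, was at 1.13, 0.913 and 1.22 RPKM in AKIT and 1.57 and 1.63 in E8 (difference -0.32 ± 0.13, limma adjusted p = 0.134). COL21A1 was at 2.22, 1.67 and 1.95 in AKIT and 2.71 and 2.55 in E8 (difference -0.31 ± 0.13, limma adjusted p = 0.151). COL16A1 overlapped, at 0.624, 1.12 and 0.766 in AKIT and 0.974 and 1.06 in E8 (difference -0.14 ± 0.16, limma adjusted p = 0.560). The 2 relatives COL12A1 and COL14A1 thus lay on opposite sides of 0. The call of COL9A2 ended without AKIT replicate 1 (limma adjusted p = 0.0841) or 3 (0.0907), that of COL14A1 without AKIT replicate 1 (0.0781), and that of COL22A1 without AKIT replicate 3 (0.0537). All 3 calls also ended with either E8 library left out (limma adjusted p of 0.126 to 0.267).

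Both transmembrane collagens that passed the filter fell, where 11.7% of all tested genes did. On the log2(RPKM + 1) scale, COL23A1 had the largest difference of all members. COL23A1 stood at 0.997, 1.63 and 0.959 RPKM in AKIT and 8.43 and 5.87 in E8, each AKIT library far below both E8 libraries. Its mean was 5.98-fold lower (difference -1.89 ± 0.20, limma adjusted p = 0.00212), and it was called under all 15 alternatives (limma adjusted p of 0.000378 to 0.0349). COL25A1, a transmembrane collagen of neurons also known from amyloid plaques, fell from 1.90 and 1.997 RPKM in E8 to 0.887, 1.35 and 0.787 in AKIT, a 1.93-fold lower mean (difference -0.56 ± 0.16, limma adjusted p = 0.0493). This call lay close to the threshold and was made under 4 of 14 alternatives. It ended without AKIT replicate 1 (limma adjusted p = 0.111), AKIT replicate 3 (0.115) and E8 replicate 1 (0.228) or 2 (0.266).

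COL18A1, the basement membrane collagen whose end piece is endostatin, fell from 94.0 and 87.2 RPKM in E8 to 57.0, 75.6 and 60.1 in AKIT, a 1.41-fold lower mean (difference -0.50 ± 0.14, limma adjusted p = 0.0442). It was the most abundant collagen gene in both E8 libraries and stood below COL6A1 in each AKIT library. Its antisense row COL18A1-AS1 was at 0.423 RPKM or less in each library, while the use of strand in the counting is not given. COL8A2, a chain of a short-chain network collagen, fell from 3.76 and 3.80 RPKM to 2.44, 2.31 and 2.67 (1.53-fold lower mean, difference -0.46 ± 0.12, limma adjusted p = 0.0367). COL7A1, the chain of anchoring fibrils in skin, was at 1.99, 3.70 and 2.40 RPKM in AKIT and 1.66 and 1.71 in E8, higher in each AKIT library (difference 0.44 ± 0.20, limma adjusted p = 0.168). The call of COL18A1 ended without AKIT replicate 1 (limma adjusted p = 0.0989), AKIT replicate 3 (0.112) and E8 replicate 1 (0.277) or 2 (0.202). That of COL8A2 ended without the same libraries (limma adjusted p of 0.0592 to 0.240).

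Of the enzymes, the prolyl 4-hydroxylase alpha subunits make the hydroxyproline that holds the triple helix together. P4HA1 had a level of 18.5 and 18.2 RPKM in AKIT replicates 1 and 2, 8.10 in AKIT replicate 3, and 14.4 and 16.9 in E8. P4HA2 was at 3.96 and 4.497 in AKIT replicates 1 and 2, 1.77 in AKIT replicate 3, and 3.62 and 4.85 in E8. Neither passed (differences -0.14 ± 0.32 and -0.30 ± 0.29, limma adjusted p = 0.788 and 0.506), and without AKIT replicate 3 both differences turned positive, at 0.22 and 0.01. P4HA3 had 0 reads in every library. AKIT replicate 3 was thus the lowest library for both subunits that were found.

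Lysyl hydroxylases modify lysines for cross-linking and sugar attachment. PLOD2, which hydroxylates the chain ends, had a level of 19.4 and 17.8 RPKM in AKIT replicates 1 and 2, 10.6 in AKIT replicate 3, and 11.04 and 11.98 in E8 (difference 0.39 ± 0.24, limma adjusted p = 0.276). Without AKIT replicate 3 its difference was 0.65 and passed (limma adjusted p = 0.024). PLOD1 was at 24.9, 19.9 and 20.5 in AKIT and 21.5 and 23.2 in E8 (difference -0.04 ± 0.12, limma adjusted p = 0.837). PLOD3, which also adds sugars, was at 10.6, 9.80 and 9.30 in AKIT and 7.86 and 8.91 in E8, higher in each AKIT library without passing (difference 0.22 ± 0.11, limma adjusted p = 0.213).

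P4HA1, P4HA2 and PLOD2 are known targets of the hypoxia-inducible factors, and 12 hypoxia-responsive genes were set beside them. Of the 11 tested, 1 fell and 0 rose: ADM, the gene of the vessel-acting peptide adrenomedullin, from 204 and 196 RPKM in E8 to 55.6, 41.1 and 19.1 in AKIT (difference -2.47 ± 0.38, limma adjusted p = 0.00761). The median difference of the 11 was -0.04, and of all tested genes 11.7% fell and 8.22% rose. Within AKIT, replicate 3 was the lowest library for 10 of the 11. Replicate 3 was at least 1.5-fold below both other AKIT libraries for 7 of the 11, and for 3.69% of all tested genes. BNIP3, of mitochondrial turnover, was at 61.7, 65.5 and 23.7 RPKM in AKIT and 35.8 and 38.5 in E8. PDK1, of glucose metabolism, was at 11.2, 13.4 and 4.20 in AKIT and 7.02 and 8.11 in E8. SLC2A1, the glucose transporter, was at 173, 149 and 70.0 in AKIT and 136 and 148 in E8. These genes and the 1.5-fold limit were chosen after the values were seen. AKIT replicate 3 was low for them as for P4HA1, P4HA2 and PLOD2, and the part of such genes in the levels of the hydroxylases was not tested.

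Among the members, the same 1.5-fold distance of AKIT replicate 3 below both other AKIT libraries was found for 11 of 42, namely COL11A1, COL2A1, COL3A1, COL4A6, COL6A3, COL8A1, LOX, LOXL1, P4HA1, P4HA2 and PLOD2. AKIT replicate 3 was the lowest AKIT library for 29 of the 42 members (69.0%) and for 28.0% of all tested genes.

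**Figure D4:**
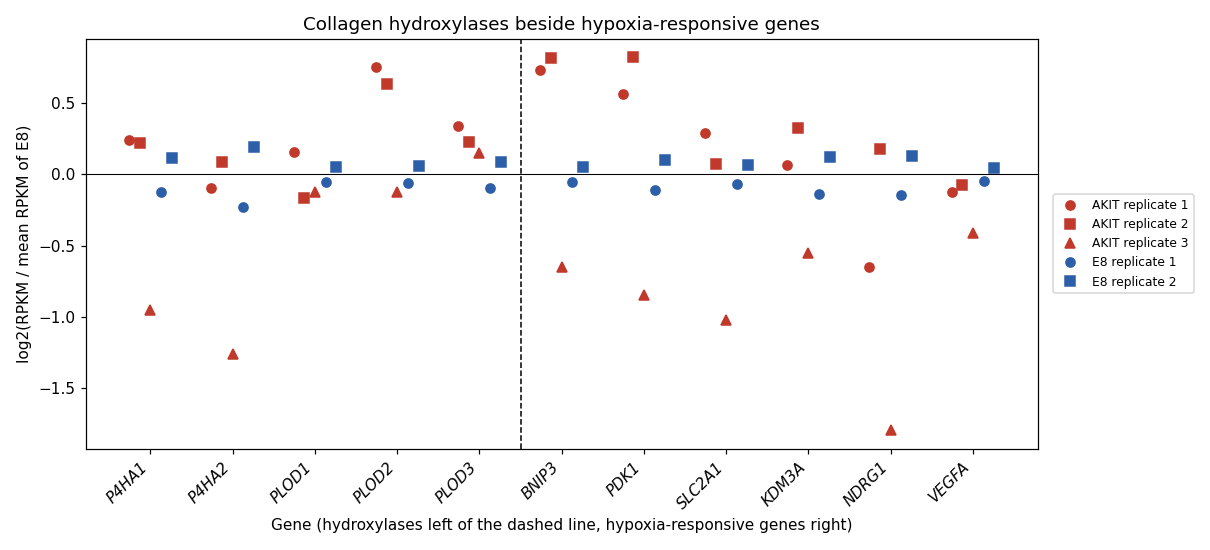
Each point is the log2 quotient of a library's RPKM to the mean of the E8 libraries, for 5 hydroxylase genes left of the dashed line and 6 hypoxia-responsive genes right of it. AKIT replicate 3 (red triangles) lies below the other AKIT libraries for P4HA1, P4HA2, PLOD2 and for the 6 genes on the right. It is also lowest of AKIT, by a smaller distance, for PLOD3, and not for PLOD1. STC2, a tested hypoxia-responsive gene not drawn, was lowest in AKIT replicate 2 (62.2, 29.2 and 30.1 RPKM in AKIT).

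The 250 bases before the first listed start are shown for these 3 hydroxylases, since they had the same low library (RefSeq, GRCh38.p14, minus strand, each 5′ to 3′ along the gene). P4HA1 is at chr10:73096867-73097116, P4HA2 at chr5:132227092-132227341 and PLOD2 at chr3:146161185-146161434. The capitals mark ACGTG and GCGTG on either strand, the letters of the core to which hypoxia-inducible factors are known to bind.
P4HA1: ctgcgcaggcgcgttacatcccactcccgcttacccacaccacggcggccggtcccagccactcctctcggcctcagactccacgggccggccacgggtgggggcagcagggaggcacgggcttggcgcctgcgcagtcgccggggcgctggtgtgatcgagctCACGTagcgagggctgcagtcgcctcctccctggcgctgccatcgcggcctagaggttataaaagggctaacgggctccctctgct
P4HA2: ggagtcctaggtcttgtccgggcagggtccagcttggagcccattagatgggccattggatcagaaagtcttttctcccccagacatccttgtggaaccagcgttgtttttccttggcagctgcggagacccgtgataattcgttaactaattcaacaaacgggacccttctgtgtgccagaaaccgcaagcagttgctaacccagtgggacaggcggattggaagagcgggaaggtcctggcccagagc
PLOD2: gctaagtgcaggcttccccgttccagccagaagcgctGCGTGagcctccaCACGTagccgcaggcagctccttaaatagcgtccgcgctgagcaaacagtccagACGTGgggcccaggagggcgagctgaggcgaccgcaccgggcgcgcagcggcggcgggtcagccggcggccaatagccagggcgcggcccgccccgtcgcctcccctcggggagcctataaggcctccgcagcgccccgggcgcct
P4HA1 holds 1 match, PLOD2 holds 3 and P4HA2 holds 0. Of the 41 members with a listed promoter, 16 (39.0%) hold at least 1 such match, and 43.1% of all listed genes do. These matches are letters in a window, and a window without them says nothing of the factor.

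Lysyl oxidases held 2 falls among 5 tested genes, where 11.7% of all tested genes fell. LOXL1, known for cross-linking elastic fibres, stood at 4.06, 4.66 and 2.42 RPKM in AKIT and 10.9 and 9.10 in E8, a 2.69-fold lower mean (difference -1.25 ± 0.22, limma adjusted p = 0.0115). LOXL2, an oxidase that acts on collagen IV, was at 10.1, 10.55 and 7.16 in AKIT and 18.2 and 18.3 in E8, a 1.97-fold lower mean (difference -0.92 ± 0.16, limma adjusted p = 0.0116). For both, each AKIT library lay below both E8 libraries, as for 28.6% of all tested genes. The calls were kept with any 1 of the AKIT libraries left out. They ended without E8 replicate 1 (limma adjusted p = 0.110 and 0.101) or 2 (0.0719 and 0.103). LOXL3 was at 5.39, 6.83 and 5.83 in AKIT and 7.33 and 5.80 in E8, with overlap (difference -0.11 ± 0.14, limma adjusted p = 0.635). LOXL4 was at 0.670, 0.529 and 0.479 in AKIT and 0.558 and 0.488 in E8 (difference 0.03 ± 0.14, limma adjusted p = 0.889). LOX, the founding member, was at 2.10, 0.900 and 0.525 in AKIT and 0.650 and 0.661 in E8, with AKIT replicate 1 alone far above the rest (difference 0.33 ± 0.29, limma adjusted p = 0.450).

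SERPINH1, the chaperone of the procollagen helix, was the most abundant member by far and ranked 61 of 14776 tested genes by its mean over the 5 libraries. It was at 415, 302 and 365 RPKM in AKIT and 445 and 412 in E8, with AKIT replicate 2 the lowest (difference -0.26 ± 0.15, limma adjusted p = 0.261, 95% interval -0.62 to 0.10). By the same mean, the next members were COL6A1 at rank 659, COL18A1 at 797 and COL1A1 at 1592.

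COL3A1, COL8A1 and LOX had their highest level in AKIT replicate 1 and the lowest in replicate 3, with at least a 4-fold distance between them. COL8A1, the partner chain of COL8A2, was at 3.17, 0.612 and 0.0334 RPKM in AKIT, from 228, 44 and 2 reads, and at 0.220 and 0.0797 in E8, from 12 and 4 reads (difference 0.73 ± 0.52, limma adjusted p = 0.354). Its AKIT libraries lay on both sides of E8. With AKIT replicate 2 between the other AKIT libraries, this pattern held for 3 of 42 members (7.14%) and for 69 of all tested genes (0.467%). It was chosen after the values were seen.

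Markers of mesenchyme and neural crest were set beside these 3 genes. Of 14 fibroblast and mesenchyme markers, 11 were highest in AKIT replicate 1 among the AKIT libraries, where 30.8% of all tested genes were. Their summed level was 315, 220 and 197 RPKM in AKIT and 381 and 376 in E8, most of it THY1, which the stem cells themselves express. FAP and DPT were at 0 in every library. LUM, a proteoglycan of collagen fibrils, was at 5.81, 1.83 and 0.0244 RPKM in AKIT, from 286, 90 and 1 reads, and had 0 reads in both E8 libraries. DCN, another such proteoglycan, had 44, 4 and 0 reads in AKIT and 0 in E8. Of 8 neural crest markers, 5 were highest in AKIT replicate 1 among the AKIT libraries, with summed levels of 58.8, 52.8 and 60.3 RPKM in AKIT and 147 and 134 in E8. TFAP2B had 161, 4 and 1 reads in AKIT and 0 in E8, PAX3 had 151, 27 and 8 against 8 and 1, and SNAI2 had 121, 34 and 10 against 38 and 20. HAPLN1, a linker of cartilage matrix, rose from 0.291 and 0.197 RPKM in E8 to 6.21, 2.34 and 1.52 in AKIT (limma adjusted p = 0.0306). It reached the filter through its AKIT libraries, as its mean in E8 was 0.244 RPKM. Of the 5 libraries, AKIT replicate 1 was highest for LUM, DCN, TFAP2B, PAX3, SNAI2 and HAPLN1, as for COL3A1, COL8A1 and LOX. These 6 markers were chosen for that pattern. Over all 5 libraries, AKIT replicate 1 was highest for 7 of 12 fibroblast and mesenchyme markers above 0, 3 of 8 neural crest markers and 2 of 7 chondrocyte markers, and for 18.6% of all tested genes. An E8 library was highest for 4, 4 and 3 of these markers, among them PDGFRB, THY1, S100A4, FOXD3, NGFR, TFAP2A, SOX10 and SOX9. The part of other cell types in the levels of COL3A1, COL8A1 and LOX was not tested.

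**Figure D5:**
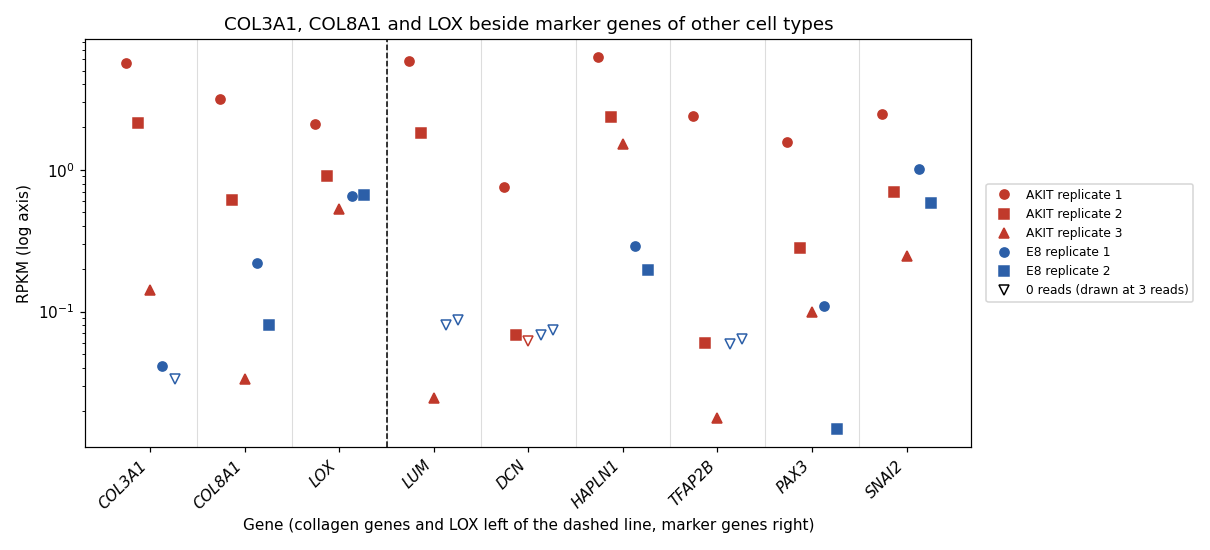
Each point is 1 library, with RPKM on a log axis, for COL3A1, COL8A1 and LOX left of the dashed line and 6 marker genes, chosen for this pattern, right of it. AKIT replicate 1 (red circles) is the highest point for all 9 genes, and open triangles stand for 0 reads, drawn at the value of 3 reads.

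Whole lists of markers of other cell types held calls in both directions. Of all tested genes, 11.7% fell and 8.22% rose, and each list below is short. Of 8 tested fibroblast and mesenchyme markers 0 rose and 3 fell: S100A4 (difference -1.56), PDGFRB (-1.15) and THY1 (-0.71). Of 7 tested smooth muscle and pericyte markers 0 rose and 2 fell, RGS5 (-1.45) and CSPG4 (-0.70), and their sum was 111 to 138 RPKM in AKIT against 136 and 140. Of 6 tested neural crest markers 0 rose and 3 fell, FOXD3 (-2.24), NGFR (-1.93) and TFAP2A (-1.32), by limma's adjusted p. TFAP2A reached the filter through its E8 libraries, as its mean in AKIT was 0.392 RPKM. Of 5 tested chondrocyte markers HAPLN1 rose (1.66) and SOX9, the regulator of cartilage collagens, fell (-0.86). The list summed to 65.1 to 79.1 RPKM in AKIT against 70.6 and 71.9. Of the cartilage collagens, COL9A1 and COL9A2 fell, while COL9A3, COL2A1, COL11A1, COL11A2 and COL27A1 were not called. Of 2 tested endothelial markers KDR rose (1.82), while PECAM1 and VWF were at 0.0682 RPKM or less in each library. Of the other untested endothelial markers, CDH5 had 29 reads in AKIT replicate 1 and 0 or 1 in each other library. ERG and ESAM were lower in each AKIT library than in E8, with 4, 5 and 10 reads against 33 and 34, and 3, 4 and 0 against 24 and 17. Of 5 tested endoderm markers FOXA2 (1.28) and LAMB1, a laminin chain of basement membranes (1.10), rose, and TTR was at 0 in every library. Of 6 pluripotent cell markers SOX2 fell (-0.79). The part of any of these lists in the changes of the collagen genes was not tested.

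Among 66 tested genes of the wider collagen pathway, the hypoxia-responsive genes included, 2 rose (3.03%) and 7 fell (10.6%), beside 8.22% and 11.7% of all tested genes. With E8 replicate 1 left out 1 rose and 1 fell, and with E8 replicate 2 left out 1 rose and 0 fell. In folding and modification, 1 of 18 genes rose and 2 fell (median difference -0.10). LEPREL1, the prolyl 3-hydroxylase now named P3H2 that acts on collagen IV, was at 4.996, 5.55 and 2.38 RPKM in AKIT and 11.9 and 14.7 in E8 (difference -1.48 ± 0.28, limma adjusted p = 0.0142). LEPREL2, a relative now named P3H3, was at 7.70, 8.04 and 8.17 in AKIT and 13.6 and 13.5 in E8 (difference -0.70 ± 0.10, limma adjusted p = 0.00503). CANX, the chaperone calnexin, rose (0.65 ± 0.11, limma adjusted p = 0.00991). For these 3 genes the groups did not overlap.

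Of 13 tested genes of procollagen export, 0 rose and 1 fell (median 0.04): CREB3L1, a membrane-bound transcription factor known to activate collagen I genes, at 4.62, 4.72 and 3.94 RPKM in AKIT and 8.76 and 10.8 in E8 (difference -0.99 ± 0.14, limma adjusted p = 0.00468). Of 6 tested genes of propeptide cleavage, 0 rose and 1 fell (median -0.11): PCOLCE, which enhances the removal of the C-terminal propeptide, at 3.90, 5.57 and 5.31 in AKIT and 11.96 and 9.12 in E8 (difference -0.96 ± 0.17, limma adjusted p = 0.0124). Both were lower in each AKIT library than in either E8 library, as were COL1A1 and 28.6% of all tested genes. COL1A2 overlapped between the media (difference -0.12 ± 0.16, limma adjusted p = 0.631). The part of CREB3L1 or PCOLCE in the levels of collagen genes was not tested.

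Of 6 tested collagen receptors 0 were called by limma (median -0.08), and 1 had an unadjusted p under 0.05. It was DDR1, a receptor kinase for collagen, at 39.2, 37.1 and 31.6 RPKM in AKIT and 48.2 and 46.4 in E8 (limma adjusted p = 0.0546). GP6, the platelet receptor, was at 0.683, 4.42 and 1.75 in AKIT and 0.500 and 0.571 in E8 (limma adjusted p = 0.170). Of 8 tested fibril-associated and matrix genes 1 rose and 1 fell (median 0.03). THBS2, a thrombospondin, rose from 10.0 and 10.2 RPKM to 24.8, 29.9 and 21.1 (difference 1.23 ± 0.15, limma adjusted p = 0.00321). SPARC, a collagen-binding protein of the matrix, fell from 132 and 128 RPKM to 83.7, 56.9 and 77.8 (difference -0.85 ± 0.17, limma adjusted p = 0.0161). Of 4 tested collagenases and gelatinases MMP9 fell (difference -0.71 ± 0.18, limma adjusted p = 0.035), and MMP1, MMP8 and MMP13 were at 0 in every library.

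Of the 55 members, 13 did not pass the filter. In a fit without the filter, 1 of them was called: COL4A4, lower in AKIT (difference -0.34 ± 0.06, limma adjusted p = 0.0267), where 7.63% of all genes in that fit were called lower. The other 11 that had reads were not called in it. Besides COL24A1, COL4A3, COL4A4 and P4HA3 above, these were COL10A1, COL13A1, COL15A1, COL17A1, COL19A1, COL20A1, COL28A1, COL6A5 and COL6A6. The last 9 had at most 50 reads in any library. COL19A1 had 8 reads in AKIT replicate 1 and 0 in the other libraries. Just inside the filter lay COL11A2 and LOXL4, with means of 0.530 and 0.545 RPKM over the 5 libraries, and just outside it COL4A4 and COL13A1, with 0.463 and 0.382.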

How the data were processed

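Per the labels' protocols, total RNA of KhES-1 cells came from an RNAeasy mini kit, and libraries followed Illumina's procedure. The authors deposited RPKM values for 23346 gene symbols. As builds, hg19 and GRCh37 stand in the submitters' processing notes. The sources used here do not give the aligner, counting tool, annotation or use of strand. Columns were matched to samples by title, and 5 of 6 samples were used. The members and lists were chosen with earlier results of these data known. The RPKM values of a gene step by the worth of 1 read, and from these steps reads per gene and library totals of 16242864 to 23263095 were recovered. All 19892 genes above 0 gave whole reads within 0.02 reads. Genes whose mean reached 0.5 RPKM were tested two-sided on log2(RPKM + 1) by limma 3.58.1 (R 4.3.3), whose prior variance followed the mean level, with no covariate. The fit was tested on simulated reads with the same added spread for every gene and no library effects. That test does not cover spreads as wide as that of COL3A1. Members that passed the filter and all fibrillar genes were named. Of other lists, up to 3 called genes, or the 2 with the smallest p, were named, and marker genes given as levels were chosen after their values were seen. Alternatives were other pseudocounts, filters, scalings and variance models, voom on recovered reads, a replicate block and each library left out. Promoters come from RefSeq (GRCh38.p14), which listed 41 of the 55 members.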

Additional observations from a re-analysis of the deposited data

How the results depend on the processing

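All 15 alternatives were planned. Over all genes 1214 rose and 1736 fell, with 2269 and 2740 by array weights, 492 and 824 with a replicate block, and 142 to 2132 and 250 to 2619 with 1 library left out. Of the members 2 rose and 11 fell. Without a filter 1 rose and 7 fell. With a minimum mean of 2 RPKM (29 members tested) or with quantile normalization 6 fell. With 1 library left out 0 to 5 rose and 2 to 15 fell. With a replicate block 3 rose and 4 fell, and 5 of the 13 calls were kept. Of the other pathway genes 2 rose and 7 fell, with 6 and 11 by array weights, 5 and 11 by voom, 4 rising with quantile normalization, 6 rising with a replicate block, and 0 to 12 falling and 1 to 8 rising with 1 library left out.

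With 1 library left out, differences with a turned sign ranged from -0.31 to 0.056 for COL11A1, from -0.33 to 0.22 for P4HA1, from -0.49 to 0.0061 for P4HA2, from -0.14 to 0.018 for PLOD1, from -0.25 to 0.040 for LOXL3 and from -0.018 to 0.070 for LOXL4. The highest values of COL11A1, P4HA1 and P4HA2 came without AKIT replicate 3 and equal those with the replicate block (0.056, 0.22 and 0.0061). PLOD1 turned without AKIT replicate 2 or E8 replicate 2, LOXL3 without E8 replicate 1, and LOXL4 without AKIT replicate 1 or E8 replicate 2. None of these passed the test. The cause was not tested. With E8 replicate 3 not analysed here, AKIT replicate 3 has no partner, so that the block gives the same differences as leaving it out. Deviations from the group means correlated at -0.00 between the libraries of number 1 and 0.03 between those of number 2, across genes. The deviations of E8 replicates 1 and 2 mirror each other, so these values cannot settle whether samples of the same number were paired. A fit with 1 E8 library assumes that it varies like the AKIT libraries.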
